A study of Mus musculus with 12 samples.

Results

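The genes described here are 42 genes that type I interferons induce, found by their symbols in a table of raw counts. Of the 28188 gene symbols in that table, 41 were members. The remaining one of the 42, Trex1, which encodes a nuclease that degrades DNA in the cytosol, has no row in the table and is not analysed here. Poly(A)-selected RNA had been sequenced from B cells and, separately, dendritic cells that were isolated from the spleen at 12 weeks of age. Each cell type came from the strains NOD and NOD.Idd2, which gives 4 groups of 3 libraries. The NOD strain, a spontaneous model of autoimmune diabetes, served as control. In NOD.Idd2 mice the Idd2 susceptibility locus is of B10 origin, so all 4 groups share the NOD background, and no treatment is named in the labels. Idd2 lies on chromosome 9, and none of the 41 members with counts lies on that chromosome in the GENCODE annotation of GRCm38. Trex1, the member without counts, does lie on chromosome 9 there (109057933 to 109059734). The labels do not say whether a library holds 1 animal or a pool, so a p-value here reflects no more than the spread among these libraries, which may be technical.

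The B cell libraries held 40344883 to 44632276 counts, of which 140167 to 152958 fell on the members. The dendritic cell libraries held 22769062 to 30337812 counts, of which 66277 to 91653 fell on the members, except replicate 3 of NOD.Idd2, with 8663421 and 24527. The isolated populations carried their defining transcripts: the B cell antigen receptor subunit gene Cd79a was at 1446 to 1819 CPM in B cells against 1.67 to 7.2 CPM in dendritic cells. The integrin gene Itgax was at 2.39 to 3.29 CPM against 1959 to 2249 CPM. CPM are counts scaled to library size by TMM, edgeR's correction for library composition, within each cell type. The cell types also differed in sex. Xist, transcribed in females, had 68008 to 89864 counts in the B cell libraries and 1 to 4 in the dendritic cell libraries, and the Y-linked gene Ddx3y was at 0 counts in all B cell libraries and 2105 to 8344 in the dendritic cell libraries. A comparison of the strains is therefore made within 1 sex, and a comparison of the cell types is also a comparison of the sexes. In these bulk libraries fewer cells of a type and less RNA per cell cannot be told apart.

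Type I interferons bind a receptor made of IFNAR1 and IFNAR2. The kinases JAK1 and TYK2 then phosphorylate transcription factors that include STAT2, which joins IRF9 in a complex that binds the interferon-stimulated response element in the promoters of the induced genes. The induced proteins include cytosolic sensors of viral RNA and DNA, enzymes that degrade or modify RNA and proteins, and parts of the pathway itself. Plasmacytoid dendritic cells are known as a rich source of type I interferon, and conventional dendritic cells and B cells respond to it.

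The response element was searched as its core, GAAA followed by any 2 bases and again GAAA, on both strands of RefSeq promoter windows of 300 bases, from 250 before to 50 after the annotated start (build GRCm38.p6), counting overlapping matches. It was found for 15 of the 32 members with a window (46.9%), against 1079 of all 27025 genes with a window (3.99%). The match is a description of these letters and not of binding. The sites below, the one nearest the start of the window used for each of the 15 members, show how alike the letters are. Trim30a has 2 windows that both hold the core, and only 1 of them is shown here and below. Each is read in the direction of the core, capitals mark the core or overlapping cores, and 5 bases are given on each side.
Ddx58: catagGAAATCGAAActgcc
Ifih1: gaatcGAAACAGAAAccgat
Stat2: gaaagGAAACTGAAAccagg
Isg15: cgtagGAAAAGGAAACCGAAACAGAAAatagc
Oas1a: ctcggGAAATGGAAACTGAAAatcta
Oas1g: ctcggGAAATGGAAACTGAAAatcta
Oas3: gaggaGAAAACGAAAgtgaa
Ifit1: agtgaGAAACTGAAActgag
Ifit3: aagtaGAAACTGAAAcagac
Ifit3b: aagtaGAAACTGAAAcagac
Rsad2: tttctGAAAATGAAAgttgg
Bst2: tccagGAAAATGAAACTGAAAggctg
Ifitm3: ttcagGAAAAGGAAActtct
Eif2ak2: gccggGAAAACGAAAcagaa
Trim30a: actgaGAAAAAGAAActaaa
Among these sites, 8 lie on the strand of the gene and 7 on the other strand. The printed stretch is the same in Oas1a and Oas1g, and likewise in Ifit3 and Ifit3b, which are pairs of near-identical genes.

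**Figure D1:**
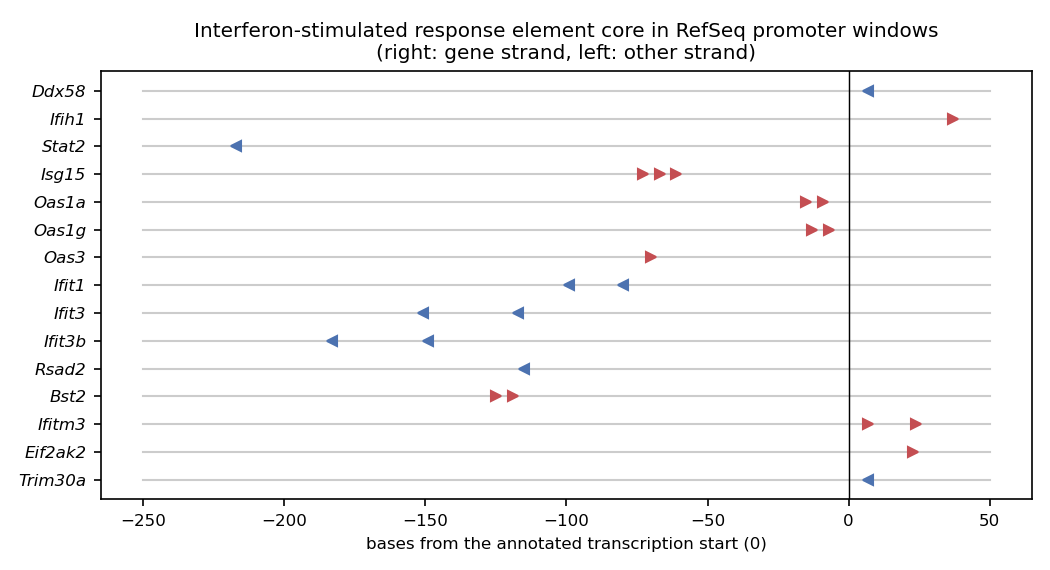
Position of each response element core in the RefSeq promoter windows of the 15 members that hold it. Trim30a is shown in 1 of its 2 windows. The horizontal axis is the distance in bases from the annotated start, grey lines are the windows, red triangles pointing right are cores on the gene strand and blue triangles pointing left are cores on the other strand. In Isg15 there are 3 overlapping cores, the nearest centred 61 bases before the start.

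Whole windows are printed for the 4 members with the core that had the smallest unadjusted p between the strains in dendritic cells, 5′ to 3′ on the gene strand. They are the 2 oligoadenylate synthetase genes Oas1a (chr5:120907476-120907775, minus strand) and Oas3 (chr5:120777610-120777909, minus strand), the RNA sensor gene Ifih1 (chr2:62646206-62646505, minus strand) and Trim30a (chr7:104446076-104446375, minus strand). Capitals again mark the core.
Oas1a: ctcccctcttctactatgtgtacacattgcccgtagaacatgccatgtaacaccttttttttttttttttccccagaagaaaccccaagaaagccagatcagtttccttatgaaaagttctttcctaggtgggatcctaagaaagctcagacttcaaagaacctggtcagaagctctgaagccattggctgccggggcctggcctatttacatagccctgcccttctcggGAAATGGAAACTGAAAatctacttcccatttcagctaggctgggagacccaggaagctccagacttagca
Ifih1: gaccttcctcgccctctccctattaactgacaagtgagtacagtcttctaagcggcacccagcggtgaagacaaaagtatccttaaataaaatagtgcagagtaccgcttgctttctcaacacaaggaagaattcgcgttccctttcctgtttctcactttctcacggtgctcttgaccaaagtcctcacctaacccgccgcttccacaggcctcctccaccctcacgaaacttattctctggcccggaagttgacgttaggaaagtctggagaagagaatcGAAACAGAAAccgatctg
Trim30a: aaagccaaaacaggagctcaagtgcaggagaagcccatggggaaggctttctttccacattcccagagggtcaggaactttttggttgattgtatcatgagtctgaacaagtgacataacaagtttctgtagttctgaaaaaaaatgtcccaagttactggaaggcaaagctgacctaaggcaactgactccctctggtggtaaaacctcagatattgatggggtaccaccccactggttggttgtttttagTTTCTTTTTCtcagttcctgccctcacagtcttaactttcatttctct
Oas3: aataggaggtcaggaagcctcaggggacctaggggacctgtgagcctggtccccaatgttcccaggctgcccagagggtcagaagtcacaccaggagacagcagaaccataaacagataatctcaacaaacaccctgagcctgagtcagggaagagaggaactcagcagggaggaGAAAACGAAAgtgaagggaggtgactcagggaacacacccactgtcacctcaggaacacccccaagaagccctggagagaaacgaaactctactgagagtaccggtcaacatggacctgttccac
Each window ends 50 bases into the transcript. The core is centred 15 and 9 bases before the start in Oas1a, 37 bases after it in Ifih1, 7 bases after it on the other strand in Trim30a and 70 bases before it in Oas3.

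Most members lay on opposite sides of 0 in the B cells and the dendritic cells. In dendritic cells 37 of the 40 members tested lay below 0, lower in NOD.Idd2 than in NOD, with a median log2 fold change of -0.21. Over all 14441 genes tested the median was 0.0006 and 7188 lay below 0. With p-values from the quasi-likelihood test of edgeR, adjusted by Benjamini-Hochberg over all genes, 4 members fell (Oas1a, Oas2, Oasl2 and Zbp1) and 1 rose (Ifi27l2a). Below, a gene is said to be called where it passed in this edgeR fit without the replicate block, unless another fit is named. The share of all genes called was 0.623% lower and 0.665% higher, 1.29% in all. In 15 members every NOD.Idd2 library was below every NOD library, against 7.81% of all genes, and in 2 every NOD.Idd2 library was above, against 8.7%. When the B cell libraries shared the fit, so that all 12 set the spread, 1 of the 5 calls was made, that of Zbp1. DESeq2, run on the same 14441 genes, called 296 in dendritic cells. Of these 9 were members, those 5 and, all lower, Ifih1, Irf9, Rtp4 and Trim30a. With no filter on low counts edgeR called 700 genes, 16 of them members. Beyond those 5 they were Dhx58, Ifih1, Ifit3, Irf7, Irf9, Lgals3bp, Mx2, Oas3, Rtp4 and Trim30a, lower, and Samd9l, higher. With the filter kept, edgeR called Dhx58, Ifit3, Irf9, Mx2 and Rtp4 lower without NOD replicate 3, and Samd9l higher without NOD replicate 1.

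In B cells 32 of the 39 members tested lay above 0, with a median log2 fold change of 0.12, against 0.01 over all 15011 genes, of which 7892 lay above 0. None was called by edgeR, where 0.16% of all genes were, 0.0733% higher and 0.0866% lower. An unadjusted p under 0.05 was reached by 12 members above 0 and by none below, and by 6.4% of all genes in either direction. DESeq2, run on the same 15011 genes, called 122, of which 2 were members, Ifi27l2a and Ifit1. In 11 members every NOD.Idd2 library was above every NOD library, against 6.42% of all genes, and in none was every NOD.Idd2 library below, against 6.4%. With the replicate number as a block, 3 members rose: Ifi27l2a, Ifit1 and Ifit3. That fit called 0.5% of all genes higher and 1.04% in either direction. It rests on a pairing in which replicate 3 of both strains stood apart, while replicates 1 and 2 were not told apart. Whether the members depart from 0 more than other genes do was not tested.

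**Figure D2:**
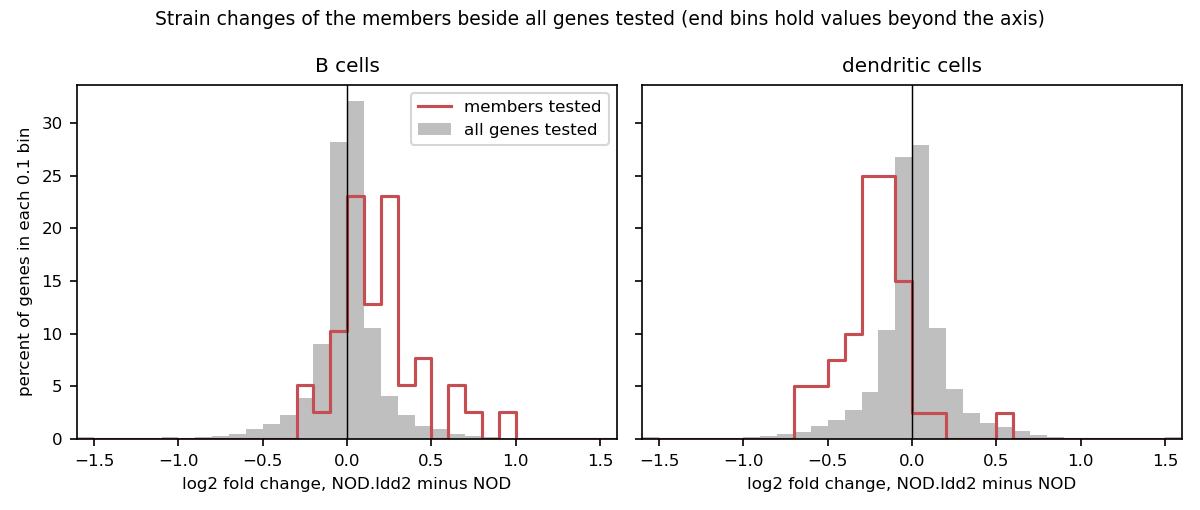
Share of genes in each bin of 0.1 in the log2 fold change, NOD.Idd2 minus NOD, in B cells (left) and dendritic cells (right). Grey bars are all genes tested and the red line is the members tested, 39 in B cells and 40 in dendritic cells, with medians of 0.12 and -0.21.

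The nucleic acid sensor group holds the RNA helicases Ddx58 (RIG-I), Ifih1 (MDA5) and Dhx58 (LGP2), the Z-form nucleic acid sensor Zbp1 and the RNA editing enzyme Adar. All 5 lay below 0 in dendritic cells and above 0 in B cells, and in dendritic cells each had all NOD.Idd2 libraries below all NOD libraries. In dendritic cells Zbp1 was at 30.5, 35.1 and 27.0 CPM in NOD and at 21.2, 22.4 and 21.1 CPM in NOD.Idd2. The highest NOD.Idd2 value stood below the lowest NOD value, and Zbp1 fell by 0.51 on the log2 scale (SE 0.09, 1.43-fold lower, edgeR adjusted p = 0.0198). The adjusted p was 0.0592 without NOD replicate 2, and 0.116, 0.0997 and 0.122 without NOD.Idd2 replicates 1, 2 and 3. In B cells Zbp1 was at 27.7, 33.3 and 33.8 CPM in NOD and at 33.7, 35.4 and 33.9 CPM in NOD.Idd2, and the groups overlapped (log2 0.12, SE 0.08, edgeR adjusted p = 0.873).

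Ifih1 was at 112, 123 and 115 CPM in NOD dendritic cells and at 94.2, 105 and 93.1 CPM in NOD.Idd2 dendritic cells. These groups did not overlap, and the log2 fold change of -0.25 (SE 0.06) missed the threshold in edgeR (adjusted p = 0.0734). In B cells its CPM were 3.97, 4.82 and 4.07 in NOD and 5.97, 4.84 and 5.33 in NOD.Idd2, where the lowest NOD.Idd2 and the highest NOD library nearly touched (log2 0.33, SE 0.13, edgeR adjusted p = 0.771). Dhx58 was at 61.6, 57.9 and 50.6 CPM in NOD dendritic cells and at 45.0, 50.4 and 44.0 CPM in NOD.Idd2 dendritic cells (log2 -0.28, SE 0.08, edgeR adjusted p = 0.162). The groups were close but did not overlap. In B cells Dhx58 was at 17.6, 21.6 and 19.2 CPM in NOD and 21.4, 24.3 and 23.5 CPM in NOD.Idd2, with 1 NOD library inside the NOD.Idd2 range (log2 0.24, SE 0.09, edgeR adjusted p = 0.75). The changes of the other sensor genes in dendritic cells were -0.15 for Ddx58 and -0.11 for Adar on the log2 scale. Exons of Dhx58 overlap Dhx58os and those of Adar overlap Chrnb2 on the other strand, and no source used here says whether counting used strand. Outside this group, exons of Irf9, Herc6, Parp14, Rtp4 and Sp100 overlap those of another gene on the same strand. Those of Irf7, Usp18, Oasl1, Eif2ak2 and Ifi35 overlap another gene on the other strand.

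The 3 signalling genes Irf7, Irf9 and Stat2 encode the transcription factors that carry the response. All lay below 0 in dendritic cells and above 0 in B cells, and edgeR called none, while in dendritic cells DESeq2 called Irf9 lower (adjusted p = 0.0150), and without a filter on low counts edgeR called Irf7 and Irf9 lower. Irf9, the DNA-binding partner of STAT2, was at 157, 151 and 141 CPM in NOD dendritic cells and at 127, 130.4 and 124 CPM in NOD.Idd2 dendritic cells. The groups did not overlap (log2 -0.23, SE 0.05, edgeR adjusted p = 0.0600). In B cells the CPM were 117, 127 and 134 in NOD and 130.0, 135 and 135 in NOD.Idd2, with overlap (log2 0.08, SE 0.06, edgeR adjusted p = 0.865). Irf7, which amplifies interferon gene transcription, averaged 72.5 ± 14.3 CPM in NOD and 59.2 ± 5.82 CPM in NOD.Idd2 dendritic cells (SD, n = 3), and Stat2 averaged 279 ± 11.3 and 255 ± 15.6 CPM. Both pairs of groups overlapped.

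The ubiquitin-like protein ISG15 is joined to other proteins by enzymes that include HERC6 and removed by USP18, which also blocks the interferon receptor. All 3 genes lay below 0 in dendritic cells, edgeR and DESeq2 called none, and in B cells Isg15 and Usp18 lay above 0 and Herc6 below. Usp18 was at 53.8, 62.3 and 55.7 CPM in NOD dendritic cells and at 49.7, 52.7 and 45.5 CPM in NOD.Idd2 dendritic cells, just without overlap (log2 -0.21, SE 0.07, edgeR adjusted p = 0.294). In B cells Usp18 was at 2.51, 3.84 and 3.39 CPM in NOD and at 4.28, 4.55 and 4.23 CPM in NOD.Idd2. Every NOD.Idd2 library was above every NOD library there, and the log2 fold change of 0.43 (SE 0.17) was not called (edgeR adjusted p = 0.765). Isg15 itself averaged 10.8 ± 1.68 and 9.18 ± 1.37 CPM in NOD and NOD.Idd2 dendritic cells, which overlapped.

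Oligoadenylate synthetases sense double-stranded RNA and make 2′-5′ linked oligoadenylates, which activate the nuclease RNase L, and the like proteins Oasl1 and Oasl2 belong to the same family. In dendritic cells 3 of the 5 tested members fell, which made this the role group with the most calls. Oas2 was at 66.8, 65.9 and 63.8 CPM in the NOD libraries and at 44.9, 47.2 and 33.5 CPM in the NOD.Idd2 libraries. All NOD.Idd2 libraries lay well below the NOD libraries, the shallow replicate 3 lowest, and Oas2 fell by 0.62 on the log2 scale (SE 0.10, 1.54-fold lower, edgeR adjusted p = 0.00813). It was the only member called whichever of the 6 dendritic cell libraries was left out, and without the shallow library the log2 fold change was -0.51 (adjusted p = 0.00816). In B cells Oas2 was at 6.01, 8.07 and 7.05 CPM in NOD and at 6.19, 9.34 and 5.83 CPM in NOD.Idd2. NOD.Idd2 replicate 2 stood highest and the others lay within or below the NOD range (log2 0.02, SE 0.21, edgeR adjusted p = 0.999).

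Oas1a was at 20.9, 20.2 and 21.7 CPM in NOD dendritic cells and at 14.3, 15.8 and 14.2 CPM in NOD.Idd2 dendritic cells. The spread within each strain was small beside the gap, and Oas1a fell by 0.49 (SE 0.08, 1.41-fold lower, edgeR adjusted p = 0.0105). The adjusted p was 0.0800 on leaving out NOD.Idd2 replicate 1 and 0.0609 on leaving out replicate 3. In B cells Oas1a was at 2.04, 1.85 and 1.95 CPM in NOD and at 1.91, 2.96 and 1.71 CPM in NOD.Idd2, with NOD.Idd2 replicate 2 alone above the rest (log2 0.17, SE 0.23, edgeR adjusted p = 0.960). Of the 50-base stretches in the annotated Oas1a transcripts, 57.6% also occur in Oas1g, so reads may be split between these genes. Oas1g itself was at 0 counts in all 6 B cell libraries, with 26 counts over the NOD and 17 over the NOD.Idd2 dendritic cell libraries, too few to be tested between the strains.

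Oasl2 was at 49.7, 42.8 and 32.4 CPM in NOD dendritic cells and at 26.1, 28.6 and 23.7 CPM in NOD.Idd2 dendritic cells. The NOD libraries were spread widely, yet the lowest stood above all NOD.Idd2 libraries, and Oasl2 fell by 0.65 (SE 0.13, 1.57-fold lower, edgeR adjusted p = 0.0363). The adjusted p was 0.113 without NOD replicate 2, and 0.161, 0.108 and 0.194 without NOD.Idd2 replicates 1, 2 and 3. In B cells Oasl2 was at 6.10, 7.43 and 6.94 CPM in NOD and at 7.82, 8.53 and 7.37 CPM in NOD.Idd2, with overlap (log2 0.21, SE 0.11, edgeR adjusted p = 0.793). Oas3 averaged 17.8 ± 2.20 CPM in NOD and 13.7 ± 1.07 CPM in NOD.Idd2 dendritic cells, without overlap (log2 -0.36, SE 0.11, edgeR adjusted p = 0.168). Oasl1, which restrains translation of Irf7, was at 2.16 ± 0.544 and 2.14 ± 0.0677 CPM there with overlap (log2 -0.02, SE 0.23, edgeR adjusted p = 0.987).

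Of the 4 IFIT family proteins, IFIT1 binds viral RNA lacking host cap marks and blocks its translation. All 4 members lay above 0 in B cells, with a median log2 fold change of 0.70, the highest of the role groups, and below 0 in dendritic cells, with a median of -0.34. Ifit1 was at 2.49, 4.06 and 3.01 CPM in NOD B cells and at 5.37, 5.6 and 4.94 CPM in NOD.Idd2 B cells. The NOD.Idd2 libraries were all above the NOD libraries, and the log2 fold change was 0.74 (SE 0.19, 1.66-fold, edgeR adjusted p = 0.606). With the replicate block it was 0.75 (SE 0.14, adjusted p = 0.0355). In dendritic cells Ifit1 was at 15.8, 14.5 and 15.3 CPM in NOD and at 11.4, 13.2 and 13.5 CPM in NOD.Idd2, again without overlap but in the opposite order (log2 -0.26, SE 0.10, edgeR adjusted p = 0.294).

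Ifit3 was at 5.48, 11.2 and 6.30 CPM in NOD B cells and at 12.4, 13.8 and 10.2 CPM in NOD.Idd2 B cells. NOD replicate 2 lay inside the NOD.Idd2 range and the other NOD libraries well below it (log2 0.67, SE 0.27, edgeR adjusted p = 0.774, and 0.71, SE 0.14, adjusted p = 0.0381 with the replicate block). In dendritic cells Ifit3 was at 17.1, 18.5 and 12.5 CPM in NOD and at 10.6, 13.2 and 12.0 CPM in NOD.Idd2, with overlap (log2 -0.42, SE 0.14, edgeR adjusted p = 0.248). Its near copy Ifit3b averaged 1.56 ± 0.579 CPM in NOD and 2.91 ± 0.229 CPM in NOD.Idd2 B cells, without overlap (log2 0.90, SE 0.26, edgeR adjusted p = 0.725). Of the 50-base stretches in the Ifit3 transcripts, 51.2% also occur in Ifit3b, so the counts of these genes are uncertain. Ifit2, which has no such copy, averaged 17.7 ± 2.04 CPM in NOD and 21.2 ± 0.308 CPM in NOD.Idd2 B cells (log2 0.26, SE 0.09, edgeR adjusted p = 0.75).

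**Figure D3:**
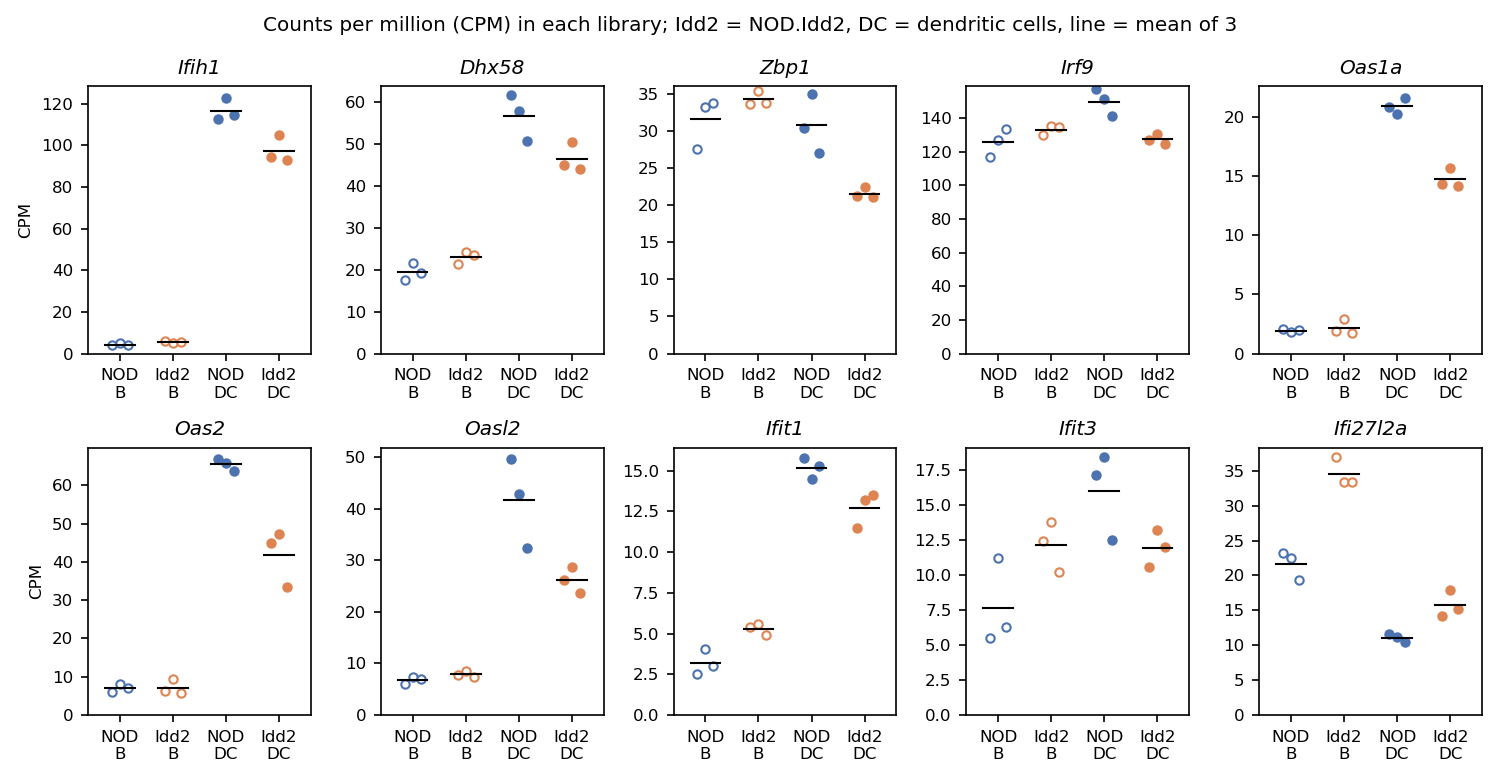
CPM in every library of the 10 members called between the strains or in the difference between cell types, in edgeR with or without the replicate block. Open points are B cells, filled points dendritic cells, blue NOD and orange NOD.Idd2, and black lines are means of 3 libraries. In dendritic cells Oas2 lies at 63.8 to 66.8 CPM in NOD and 33.5 to 47.2 CPM in NOD.Idd2, and Ifi27l2a is higher in NOD.Idd2 in both cell types.

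The 10 other antiviral effectors were less uniform. In dendritic cells 8 lay below 0 and Mx1 and Samd9l above, in B cells 6 lay above 0 and 4 below, and edgeR called none in either. DESeq2 called Trim30a lower in dendritic cells (adjusted p = 0.0269). Without a filter on low counts edgeR called Trim30a and Mx2 lower and Samd9l higher there. The log2 fold changes ran from -0.40 (Mx2) to 0.18 (Samd9l) in dendritic cells and from -0.24 (Ifitm3) to 0.46 (Rsad2) in B cells. Trim30a, which restrains signalling of innate receptors, was at 191, 188 and 189 CPM in NOD dendritic cells and at 160.3, 174 and 148 CPM in NOD.Idd2 dendritic cells. The groups did not overlap (log2 -0.23, SE 0.06, edgeR adjusted p = 0.103). In B cells its CPM were 240.3, 256 and 245 in NOD and 207, 264 and 220.1 in NOD.Idd2, with overlap (log2 -0.10, SE 0.09, edgeR adjusted p = 0.920).

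Bst2, the tetherin that holds budding virus at the cell surface, was at 8.98, 9.79 and 9.29 CPM in NOD B cells and at 11.8, 10.7 and 10.4 CPM in NOD.Idd2 B cells, without overlap (log2 0.23, SE 0.08, edgeR adjusted p = 0.75). In dendritic cells it was at 27.8, 22.1 and 24.8 CPM in NOD and 23.9, 25.1 and 25.2 CPM in NOD.Idd2, where the groups could not be separated (log2 -0.01, SE 0.09, edgeR adjusted p = 0.974). The GTPase gene Mx1 averaged 77.2 ± 10.7 and 79.6 ± 5.66 CPM in NOD and NOD.Idd2 dendritic cells. Ifitm3, which blocks virus entry from endosomes, averaged 143 ± 12.1 and 140 ± 5.24 CPM there. These groups overlapped, with log2 fold changes of 0.05 (SE 0.09) and -0.03 (SE 0.06). Samd9l was the only member of this group with every NOD.Idd2 library above every NOD library in dendritic cells, at 298 ± 20.6 and 338 ± 15.2 CPM (log2 0.18, SE 0.06, edgeR adjusted p = 0.217).

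PARP9 and DTX3L form a complex that modifies histones and ubiquitin, and PARP14 is a mono-ADP-ribosyltransferase. None of their genes was called by edgeR or DESeq2. The log2 fold changes of Parp9, Dtx3l and Parp14 were -0.13, -0.10 and -0.14 in dendritic cells and 0.04, 0.02 and -0.05 in B cells. Parp14 was at 276, 302 and 313 CPM in NOD dendritic cells and at 276, 274 and 255 CPM in NOD.Idd2 dendritic cells, with the lowest NOD library level with the highest NOD.Idd2 library (SE 0.06, edgeR adjusted p = 0.353). In NOD B cells it was at 199, 210.2 and 218 CPM against 193, 208 and 204 CPM in NOD.Idd2 B cells (SE 0.05, edgeR adjusted p = 0.926). Parp9 was at 103, 119 and 114 CPM in NOD dendritic cells and at 106, 103 and 96.7 CPM in NOD.Idd2 dendritic cells (SE 0.06, edgeR adjusted p = 0.479). In B cells Parp9 was at 89.0, 89.3 and 92.9 CPM in NOD and at 92.3, 94.1 and 92.9 CPM in NOD.Idd2 (SE 0.04, edgeR adjusted p = 0.918). All these groups overlapped. Exons of Parp9 and Dtx3l overlap on opposite strands.

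Among the 7 other induced genes, Ifi27l2a, which encodes a small mitochondrial protein of the ISG12 family, was the one member with every NOD.Idd2 library above every NOD library in both cell types. Mx1 also lay above 0 in both, at 0.05 in dendritic cells and 0.29 in B cells on the log2 scale, with overlap. In dendritic cells Ifi27l2a was at 11.6, 11.1 and 10.5 CPM in NOD and at 14.2, 17.9 and 15.2 CPM in NOD.Idd2, without overlap. Ifi27l2a rose there by 0.52 on the log2 scale (SE 0.11, 1.43-fold, edgeR adjusted p = 0.0392). That call was kept in 1 of the 6 fits that left out a library, the one without NOD replicate 1 (adjusted p = 0.0370). Without the others it was 0.0559 (NOD replicate 3), 0.117 (NOD replicate 2), and 0.0672, 0.331 and 0.123 (NOD.Idd2 replicates 1, 2 and 3). In B cells Ifi27l2a was at 23.3, 22.5 and 19.4 CPM in NOD and at 37.0, 33.4 and 33.4 CPM in NOD.Idd2. The NOD.Idd2 libraries stood far above the NOD libraries (log2 0.67, SE 0.08, 1.59-fold), with an edgeR adjusted p of 0.0522, and 7.14e-05 with the replicate block.

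Ifi27l2a lies on chromosome 12 (103442167 to 103443680, minus strand). Its neighbour Ifi27 (103434211 to 103440239, plus strand), another ISG12 gene and not a member, was at 19.0, 24.4 and 22.7 CPM in NOD B cells and at 31.2, 34.5 and 34.4 CPM in NOD.Idd2 B cells, without overlap (log2 0.60, SE 0.10, edgeR adjusted p = 0.165, and 0.000203 with the replicate block). In dendritic cells Ifi27 was at 26.8, 34.4 and 35.1 CPM in NOD and at 47.9, 52.1 and 38.0 CPM in NOD.Idd2, again without overlap (log2 0.54, SE 0.12, edgeR adjusted p = 0.0507). Within 500 kb of Ifi27l2a, 6 other genes were tested in dendritic cells and 1 was called, Asb2, in the other direction (log2 -0.33, edgeR adjusted p = 0.0195). In B cells no neighbour was called without the replicate block, and with it Ddx24 rose beside Ifi27 (log2 0.17 without the block, edgeR adjusted p = 0.704, and 0.0448 with it).

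The remaining 6 genes of that group lay below 0 in dendritic cells, none called by edgeR. DESeq2 called Rtp4 lower, as did edgeR on leaving out NOD replicate 3 or the filter on low counts. Without that filter edgeR also called Lgals3bp lower. The lowest was Rtp4, a chaperone of receptor transport, at 21.7 ± 3.59 CPM in NOD and 15.2 ± 2.37 CPM in NOD.Idd2, without overlap (log2 -0.49, SE 0.13, edgeR adjusted p = 0.126). In B cells Rtp4 was at 5.61 ± 0.307 and 6.76 ± 0.725 CPM, without overlap in the opposite order (log2 0.27, SE 0.11, edgeR adjusted p = 0.779). Sp100, a component of nuclear bodies, was at 565 ± 17.4 and 609 ± 20.4 CPM in B cells, again without overlap (log2 0.11, SE 0.04, edgeR adjusted p = 0.778). Ifi44 was near the limit of detection, with 25 counts over the NOD and 21 over the NOD.Idd2 B cell libraries, and was tested in dendritic cells only. Of the 50-base stretches in the Rtp4 transcripts, 11.6% also occur in Gm45338, which lies on the same strand.

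**Figure D4:**
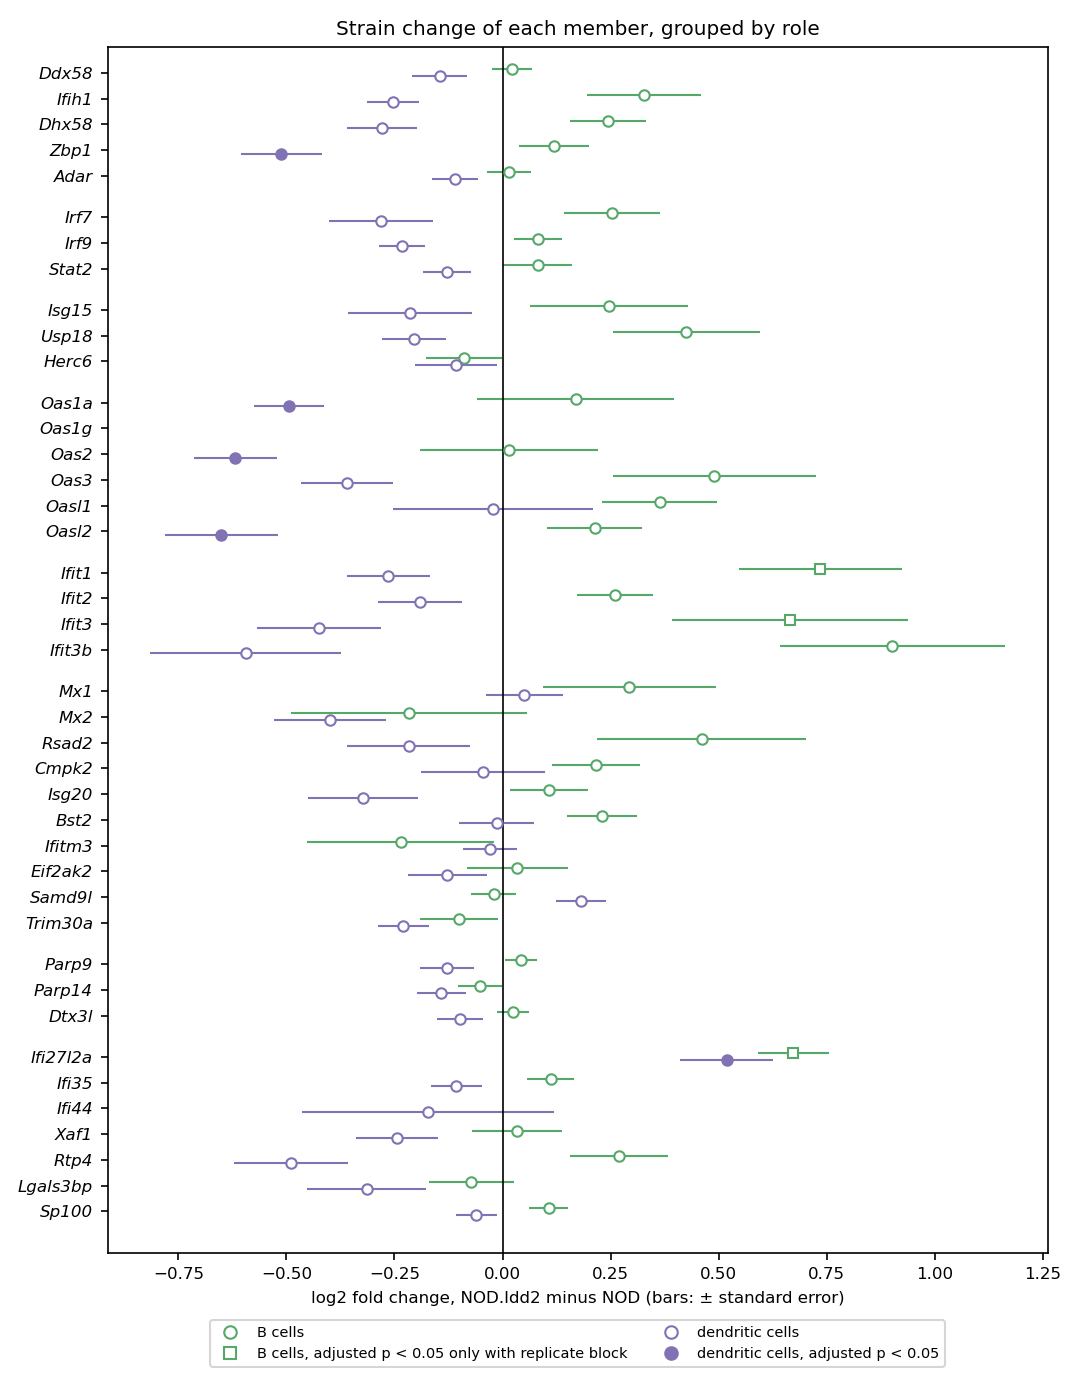
Log2 fold change between the strains, NOD.Idd2 minus NOD, for each member, ordered by role, with bars of 1 standard error from 3 libraries per group. Green is B cells and violet dendritic cells, filled points have an edgeR adjusted p under 0.05, and squares mark members called in B cells by edgeR with the replicate block and not without it. The 37 violet points left of 0 and the 32 green points right of 0 show the opposite directions, with Ifi27l2a to the right in both.

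Whether the strain effect differed between the cell types was tested as an interaction over all 12 libraries. The B cell libraries were female and the dendritic cell libraries male, so cell type and sex cannot be told apart in this difference. The difference, dendritic cells minus B cells, was below 0 for 38 of 41 members, with a median of -0.30 on the log2 scale, or -0.29 over the 40 without Oas1g, whose B cell counts are all 0. Over all 16588 genes the median was -0.02. None of the members passed in edgeR, against 0.109% of all genes, 0.0603% higher and 0.0482% lower. An unadjusted p under 0.05 was reached by 23 members below 0 and 1 above, and by 8.22% of all genes in either direction. DESeq2, run on the same 16588 genes, called 114. Of these 9 were members, all below 0: Dhx58, Ifih1, Ifit1, Ifit3b, Irf9, Oasl2, Rtp4, Usp18 and Zbp1. The smallest unadjusted p belonged to Ifit1, where the difference was -1.02 (SE 0.20, edgeR adjusted p = 0.128).

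With the replicate block in both cell types 6 members passed, all below 0: Ifit1 (-1.03, SE 0.18, adjusted p = 0.0463), Ifit3 (-1.18, SE 0.21, adjusted p = 0.0473), Oasl2 (-0.90, SE 0.13, adjusted p = 0.0187), Zbp1 (-0.67, SE 0.10, adjusted p = 0.0235), Dhx58 (-0.55, SE 0.09, adjusted p = 0.0318) and Irf9 (-0.34, SE 0.06, adjusted p = 0.0473). That fit called 0.217% of all genes lower and 0.338% in either direction. The dendritic cell replicate numbers did not pair the libraries. With the block in B cells alone, a fit chosen after seeing the data, Ifit1 alone passed (-1.03, SE 0.17, edgeR adjusted p = 0.0296), beside 0.102% of all genes lower. Ifi27l2a, higher in NOD.Idd2 in both cell types, had a difference of -0.17 (SE 0.14, edgeR adjusted p = 0.799). For the synthetase genes called in dendritic cells the difference was -0.69 for Oas1a (SE 0.23), -0.66 for Oas2 (SE 0.24) and -0.89 for Oasl2 (SE 0.20), with edgeR adjusted p = 0.435, 0.488 and 0.163.

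Most members were higher in NOD dendritic cells than in NOD B cells. By edgeR 31 of 41 were higher and 8 lower in dendritic cells, against 37.7% and 38.7% of all genes (76.4% in all), with a median log2 fold change of 1.26 over the members, also with Oas1g at its lower bound, and -0.04 over all genes. The largest fold among members detected in both was that of Ifitm3 (log2 6.90, SE 0.12, 119-fold), followed by Ifih1 (4.81, SE 0.10), Usp18 (4.18, SE 0.13), Oas1a (3.46, SE 0.17), Oas2 (3.26, SE 0.18) and Rsad2 (3.26, SE 0.22). Oas1g, at 0 counts in B cells, was at least 14.2-fold higher, taking 3 counts over the group as the floor. The 8 members higher in B cells were Oasl1 (log2 -2.17, SE 0.17), Samd9l (-1.89, SE 0.06), Sp100 (-1.22, SE 0.05), Cmpk2 (-1.05, SE 0.13), Ifi27l2a (-0.93, SE 0.10), Ddx58 (-0.83, SE 0.06), Trim30a (-0.34, SE 0.08) and Adar (-0.23, SE 0.05). Zbp1 (0.01, SE 0.09) and Mx2 (0.44, SE 0.23) were not called. The synthetase-like genes Oasl1 and Oasl2, neighbours on chromosome 5, were thus on opposite sides.

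Levels of different genes were compared as CPM per kilobase of exon, scaled over all 12 libraries. In NOD B cells the order began with Samd9l at 207 ± 10.1, Sp100 at 73.9 ± 2.25, Trim30a at 59.3 ± 1.61 and Ifi27l2a at 46.3 ± 4.40 (mean ± SD, n = 3), each apart from the next by more than their summed SDs. Stat2, Adar, Ifi35 and Ddx58 followed at 25.3 to 30.3, each within the summed SDs of the next. In NOD dendritic cells Ifitm3 led at 215 ± 17.8, followed by Samd9l at 55.8 ± 3.8. Stat2 at 47.9 ± 1.93 and Trim30a at 46.8 ± 0.312 were level. In NOD.Idd2 B cells Ifi27l2a, at 74.0 ± 4.84, came next after Sp100, within its spread at 79.8 ± 2.16. Ifi44 and Oas1g were lowest in all 4 groups, with Ifi44 at 0.0319 ± 0.0195 in NOD B cells and 0.262 ± 0.0750 in NOD dendritic cells.

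**Figure D5:**
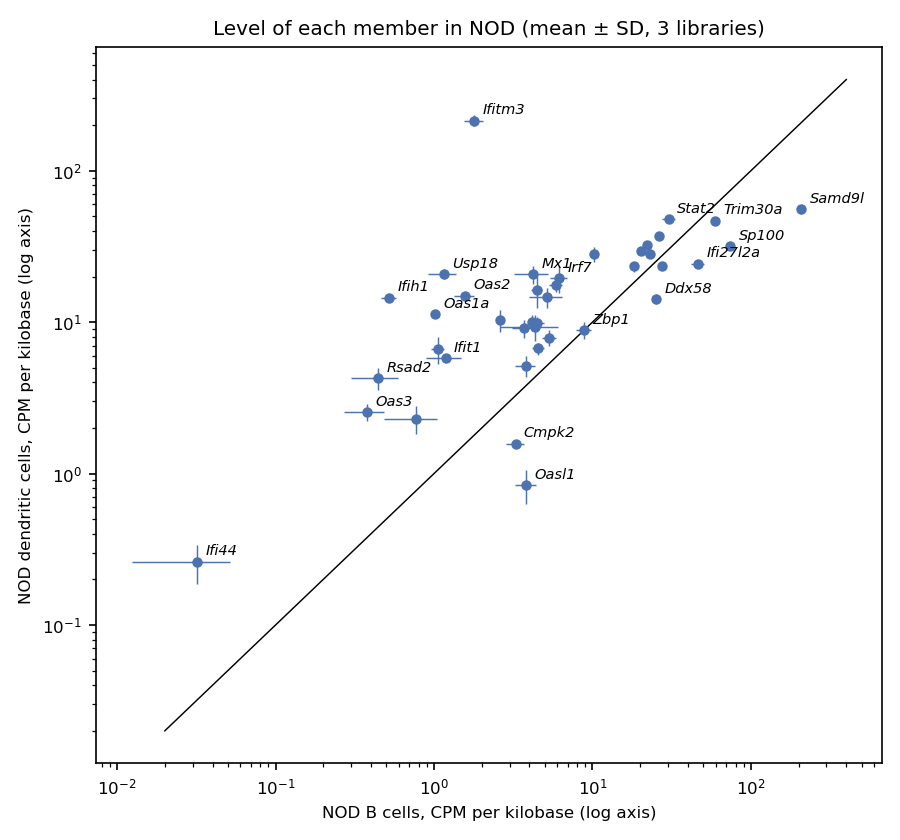
Level of the 40 members with counts in both cell types, as CPM per kilobase of exon on log axes, in NOD B cells (horizontal) and NOD dendritic cells (vertical), mean ± SD of 3 libraries. The line marks equal levels. Ifitm3 lies far above the line, at 1.79 in B cells against 215 in dendritic cells, and Samd9l below it, at 207 and 55.8.

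Of 18 type I interferon genes 3 were in the table, Ifnb1, Ifna9 and Ifnk, and none had more than 1 count in any library. Of 4 receptor and kinase genes, the receptor chains Ifnar1 and Ifnar2 and the kinases Jak1 and Tyk2, none was called by edgeR or DESeq2 in either cell type. The receptor chain gene Ifnar1 was at 217 ± 6.90 and 233 ± 5.59 CPM, the kinase genes Jak1 at 388 ± 10.6 and 385 ± 3.82 and Tyk2 at 193 ± 3.49 and 195 ± 11.8 CPM in NOD and NOD.Idd2 dendritic cells. In B cells the log2 fold changes of the 4 were -0.06 to 0.06.

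None of the 8 negative regulators of the receptor was called by edgeR or DESeq2, and all 8 lay below 0 in dendritic cells, with a median of -0.14. Among them the phosphatase gene Ptpn6 was at 710 ± 25.8 and 649 ± 18.7 CPM in NOD and NOD.Idd2. EdgeR made no call among 16 nucleic acid receptors, adaptors and kinases (5 above and 11 below 0 in dendritic cells, median -0.05) or 7 further interferon regulatory factors (2 above and 5 below, median -0.01), and DESeq2 called 1 of them, the RNA receptor gene Tlr7, lower in dendritic cells. Without a filter on low counts edgeR called Socs3 and Tlr7 lower and Irf8 higher in dendritic cells. Of 39 further interferon-induced genes in the table, 35 lay below 0 in dendritic cells, with a median of -0.10. In 12 all NOD.Idd2 libraries were below all NOD libraries, against 7.81% of all genes, but edgeR called none. Without a filter on low counts it called 700 genes, among them 7 of the 39 lower and Ifi27 higher. Ifi27 was also called higher by DESeq2 (adjusted p = 0.000839), by edgeR with RLE size factors (0.0496) and with the replicate block (0.0429). The ubiquitin ligase gene Rnf213, at 751 ± 42 and 670 ± 19.9 CPM, had a log2 fold change of -0.16 (SE 0.05, edgeR adjusted p = 0.229). In B cells 23 of the 37 tested lay above 0, with a median of 0.03, and none was called by edgeR without the replicate block. Ifi27 rose with the block and by DESeq2 (adjusted p = 5.68e-08).

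Marker genes of other cells moved with the strains in some lists, and their part in the members' changes was not tested. In dendritic cells 7 of the 8 plasmacytoid markers tested lay above 0, none called, with a summed level of 337 to 413 CPM in NOD and 404 to 456 CPM in NOD.Idd2. The defining marker Siglech was at 9.56 to 16.2 and 15.3 to 19.0 CPM. Monocyte markers summed to 728 to 944 and 979 to 1035 CPM, with 5 of 8 above 0, and the monocyte gene Ly6c2 was at 0.417 to 1.01 and 0.439 to 0.755 CPM. Among type 1 conventional dendritic cell markers Cadm1 fell (log2 -0.69, SE 0.09, edgeR adjusted p = 0.00212) while Xcr1 was at 138 ± 9.27 and 146 ± 13 CPM, and the sum was 3218 to 3450 and 3092 to 3333 CPM. Cadm1 lies on chromosome 9. Of the type 2 markers Mgl2 rose (log2 0.63, SE 0.07, edgeR adjusted p = 0.00075), with 4 of 7 above 0 and a sum of 2064 to 2353 and 2266 to 2332 CPM. Of the splenic macrophage markers Cd163 rose (log2 0.77, SE 0.15, edgeR adjusted p = 0.0259), with 4 of 9 above 0 and a sum of 370 to 451 and 384 to 411 CPM. No other list had an edgeR call in dendritic cells without the replicate block. With the block the monocyte gene Ccr2 was called higher (adjusted p = 0.0190), and so were the type 2 genes Cd209a and Clec10a, which DESeq2 called too. Without a filter on low counts further markers were called by edgeR, among them Siglech, Tcf4 and Cd300c (plasmacytoid), Cx3cr1, Thy1 and Jchain higher and Itgae and Cd79a lower. All 8 T cell markers, all 7 natural killer cell markers, all 5 neutrophil markers tested and all 5 plasma cell markers tested lay above 0. Their sums were 101 to 124 and 111 to 134 CPM, 4.51 to 9.13 and 7.63 to 11 CPM, 5.35 to 10.2 and 7.37 to 14.2 CPM, and 147 to 195 and 180 to 263 CPM. Of the 6 B cell markers 1 lay above 0, with sums of 458 to 477 and 422 to 471 CPM.

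In B cells all 6 neutrophil markers tested lay below 0, with a summed level of 7.68 to 29.6 CPM in NOD and 7.28 to 11.6 CPM in NOD.Idd2. All 7 natural killer cell markers did so too, at 23.0 to 32.2 and 16.3 to 24.6 CPM. Splenic macrophage markers summed to 39.4 to 45.5 and 45.9 to 51.8 CPM, higher in NOD.Idd2 without overlap. Type 1 conventional dendritic cell markers summed to 1076 to 1096 and 1099 to 1191 CPM, though 4 of the 6 tested lay below 0. Of the 7 monocyte markers tested 6 lay below 0, with overlapping sums of 180 to 187 and 176 to 195 CPM. No marker was called by edgeR without the block. With the replicate block the natural killer cell gene Gzma (adjusted p = 0.00605), the monocyte gene Chil3 (0.0202) and Cadm1 (0.0464) fell, and the macrophage gene Adgre1 rose (0.00145). DESeq2 called the same 4 genes in the same directions (adjusted p = 0.0388, 0.00344, 0.0379 and 0.0421), and the edgeR fit of all 12 libraries called Cadm1 (0.0229). The medians of the members' own deviations from their group means ran from -0.10 in NOD replicate 1 to 0.08 in NOD replicate 2 of the B cells, and from -0.07 in NOD replicate 3 to 0.09 in NOD.Idd2 replicate 2 of the dendritic cells, on the log2 scale.

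Members with and without the response element core were set side by side. In dendritic cells none of the 14 tested members with the core lay above 0, with a median log2 fold change of -0.22, and of the 16 without it 1 lay above 0, with a median of -0.14. In B cells 12 of 14 with the core lay above 0 (median 0.24) and 12 of 15 without it (median 0.11). No window was given for Ifi27l2a, Oas2, Zbp1, Dhx58, Usp18, Mx1, Mx2, Parp9, Parp14 and Rtp4, so these members are not among them. Of these, Ifi27l2a and Mx1 lay above 0 in dendritic cells.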

How the data were processed

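The deposited table holds raw read counts per gene symbol for 12 libraries, 3 in each of 4 groups. Per the labels' protocols Trizol served for extraction and a KAPA HyperPrep poly(A) kit for the libraries. Per the submitters' processing notes the tools include STAR 0.12.2 and the genome build is GRCm38. How reads were counted, on which annotation and with which use of strand, is not given in the sources used here. Normalized counts, also deposited by the authors, were left out. The members and all gene lists were chosen with earlier results of these data known. Results for 1 listed pathway gene outside the members are not reported here.

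Groups were compared on the counts with edgeR 4.0.16 in R 4.3.3 (TMM scaling, filterByExpr at min.count 10 and min.total.count 15, the quasi-likelihood test, Benjamini-Hochberg adjustment over all genes tested, threshold 0.05). Strains were compared within each cell type on 6 libraries. The difference between cell types and the comparison of dendritic cells with B cells used all 12. A standard error is the size of the log2 fold change divided by the square root of the test's F statistic. Members were named if called in a strain comparison or the difference, with or without the replicate block. In a role group with none called, the member with the smallest p in each cell type was named. Other members appear with their values to describe their group and were chosen after their values were seen.

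In B cells the deviations from the group mean of libraries with the same number had correlations of 0.617, 0.410 and 0.815, so by the rule used the numbers pair them. NOD replicates 1 and 2 also correlated with NOD.Idd2 replicates 2 and 1, at 0.433 and 0.470, and the labels state no pairing. The chi-square per gene between NOD replicates 1 and 2 was 7.93, against 47.1 and 42.1 between each of them and replicate 3. In NOD.Idd2 these values were 8.48, 43.6 and 41.2. The correlations thus set replicate 3 apart and do not tell 1 from 2. In dendritic cells the correlations were -0.00175, 0.0122 and 0.0542, which did not pair the libraries. Alternatives were RLE size factors, other filters on low counts, DESeq2 1.42.0, the replicate block, a fit of all 12 libraries and leaving out each library.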

Additional observations from a re-analysis of the deposited data

Results flagged for a closer look

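The strain effect on Ifit1 differed between the cell types by the test of the difference itself when the replicate number was a block in B cells only: the log2 fold change in dendritic cells minus that in B cells was -1.03 (SE 0.17, edgeR adjusted p = 0.0296). Ifit1 was higher in all 3 NOD.Idd2 B cell libraries than in any NOD B cell library, and lower in all 3 NOD.Idd2 dendritic cell libraries than in any NOD dendritic cell library. That fit was chosen after seeing the data. The B cell libraries were female and the dendritic cell libraries male, so this difference cannot be assigned to cell type rather than sex. Without the block the difference was -1.02 (edgeR adjusted p = 0.128). It passed in 1 of the 12 edgeR fits that left out a library, the one without NOD B cell replicate 2 (adjusted p = 0.0240). In the other 11 it was not called, with an adjusted p of up to 0.375.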

How the results depend on the processing

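In B cells 24 genes and 0 members were called. The counts were 122 and 2 with DESeq2, 42 and 1 in the fit of all 12 libraries, and 46 and 1 without replicate 3 of both strains, an alternative chosen after seeing the data. Without a filter 1 member was called, and leaving out single libraries gave 13 to 18 genes and 0 to 0 members. In dendritic cells 186 genes and 5 members were called, against 700 and 16 without a filter, 296 and 9 with DESeq2, 94 and 1 in the fit of all 12 libraries, and 63 to 332 and 1 to 9 without single libraries. For the difference 18 genes and 0 members were called, against 33 genes without a filter, 114 and 9 with DESeq2, and 7 to 19 and 0 to 1 without single libraries. The member called there was Ifit1 without NOD B cell replicate 2 and Oasl2 without NOD dendritic cell replicate 3. The causes were not tested. For dendritic cells against B cells all counts stayed within 1.5 times.

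With the replicate block the B cell counts were 156 genes and 3 members, and the difference gave 56 and 6, or 31 and 1 with the block in B cells only. In dendritic cells, where the numbers did not pair the libraries, the block called 214 genes and 6 members, Ifih1 added. The B cell value of Oas2 was -0.00127 with the block.

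Other values changed sign on leaving out a library, and none of them was called in either form. In B cells Oas2 ran from -0.23 (without NOD.Idd2 replicate 2; -0.092 without NOD replicate 1) to 0.14, and Oas1a from -0.11 (without NOD.Idd2 replicate 2) to 0.32. In dendritic cells Bst2 reached 0.072 without NOD replicate 1 and 0.011 without NOD.Idd2 replicate 1. Chil3 ran from -0.48 to 0.24 (on leaving out NOD replicate 1), with 0.059 without NOD.Idd2 replicate 3, Adgre1 from -0.18 to 0.094 (without NOD replicate 2) and Gzma from -0.16 (without NOD replicate 2; -0.072 without NOD.Idd2 replicate 2) to 0.96. For the difference Mgl2 ran from -0.56 (without NOD B cell replicate 1) to 1.41, and Ifi27 from -0.19 to 0.040 (without NOD.Idd2 dendritic cell replicate 3; 0.011 without NOD B cell replicate 1). For dendritic cells against B cells Zbp1 was at -0.0048 without a filter and ran from -0.12 (without NOD dendritic cell replicate 2) to 0.13, with -0.082 without NOD B cell replicate 1 and -0.016 without NOD.Idd2 dendritic cell replicate 2. The shallow NOD.Idd2 dendritic cell replicate 3, at 8663421 counts, limits the precision of low members there.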
